A study of Rattus norvegicus with 16 samples.

Results

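The genes described here encode the proteins with which a liver cell builds and remodels lipoproteins: *Mttp*, the microsomal triglyceride transfer protein, *Lipc*, hepatic lipase, and the apolipoproteins *Apob*, *Apoa1*, *Apoa2*, *Apoa4*, *Apoa5*, *Apoc3*, *Apoe* and *Apoh*. They are 10 of the 26269 gene names on the array and were taken by gene name, each with 1 probe of 60 bases and 1 spot per array. They were chosen by function and by their normalized log2 intensity over the 4 groups, with earlier results of these arrays in view, so all their differences between groups are given as a description. Where members are counted as called (at least 2-fold and limma adjusted p under 0.05), the share of all gene names called is given with it and no p is read from it. The cells were rat hepatoma H35, a liver tumour line, and their RNA was read on 16 one-colour Agilent arrays, 4 biological replicates in each of 4 groups. CN-10 is a stable clone carrying a negative control shRNA plasmid. Clones 4–18 (shRNA4 plasmid) and 3–44 (shRNA3 plasmid) are stable clones with a plasmid directed against *Pdrg1*, the gene whose silencing the study addressed. shRNA3T is a pool that received the shRNA3 plasmid by transient transfection and was enriched with the antibiotic G418. All 4 groups went through selection at 1.8 mg/ml G418, and the stable clones were then selected further at 4 mg/ml. Each stable group is 1 clone, so clonal differences and silencing cannot be told apart within it, and the pool was compared with the stable CN-10 clone. The errors and p-values therefore measure the spread among cultures of 1 clone or 1 pool.

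Hepatocytes assemble very low density lipoprotein in the endoplasmic reticulum, where the protein of *Mttp* loads lipid onto apolipoprotein B while it is being made. The smaller, exchangeable apolipoproteins then move between particles in the circulation and set how these are hydrolysed or taken up. Apolipoprotein A-I is the main protein of high density lipoprotein, and hepatic lipase hydrolyses triglycerides and phospholipids in remnants and in high density lipoprotein.

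The values rest on the probes below, shown 5′ to 3′ for the 4 genes with the largest differences between groups. Positions are those of the array files on the rn4 build, and no transcript annotation of that build was used. The file places the *Mttp* probe at chr2:235613710-235613735 and the *Lipc* probe at chr8:75327597-75329155, both on the minus strand, and gives these as intervals that are not 60 bases long. It lists no position for the *Apoa1* and *Apoc3* probes.
Mttp: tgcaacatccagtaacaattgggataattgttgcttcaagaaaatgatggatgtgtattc
Lipc: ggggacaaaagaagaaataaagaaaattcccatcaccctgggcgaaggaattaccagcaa
Apoa1: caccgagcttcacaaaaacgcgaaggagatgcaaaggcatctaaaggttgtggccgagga
Apoc3: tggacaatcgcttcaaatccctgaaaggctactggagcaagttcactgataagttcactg

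RefSeq promoter windows (GRCr8 build, 250 bases before to 50 after a start) were at hand for 5 of the 10 genes, in 8 windows. They were searched on both strands for TGACCTTTG, a nuclear receptor site, and for AAAGTCCA, a core of HNF4 sites. The window of *Lipc* is printed because it held the first of these, in capitals at bases 19 to 27. It spans chr8:80516236-80516535 on the minus strand.
Lipc promoter: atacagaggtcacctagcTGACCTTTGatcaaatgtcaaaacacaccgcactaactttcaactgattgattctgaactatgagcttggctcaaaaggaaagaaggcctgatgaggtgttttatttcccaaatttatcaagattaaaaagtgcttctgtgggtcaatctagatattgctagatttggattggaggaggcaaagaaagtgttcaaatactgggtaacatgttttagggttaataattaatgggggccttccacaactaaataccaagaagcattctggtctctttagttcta
Of all 33469 windows, 0.424% held the first motif and 1.37% the second, which among these genes was found in the window of *Apoa4*. A match is a run of letters and not a measured site.

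Between 53.1% and 74.3% of the spots on an array were well above background, with the lowest shares in 4–18. Its arrays were also dimmer before scaling between arrays. The 75th percentile of the software's processed signal was 1613 to 1878 in 4–18. It was 2632 to 3548 in CN-10, 2290 to 3647 in 3–44 and 2573 to 3629 in shRNA3T. The 4 arrays of a group shared 1 scan time that no other group had, and 4–18 was scanned on a later day than the others, so effects of scan and of group cannot be told apart. The *Pdrg1* probe, the check of the silencing, lay between 13.41 and 13.88 on the CN-10 arrays and between 11.57 and 13.34 on the silenced ones (normalized log2 intensity). No silenced array overlapped CN-10, and the array of replicate 1 was the lowest in every silenced group. Its log2 difference from CN-10 was -0.77 in 4–18, -0.99 in 3–44 and -0.85 in shRNA3T (SE 0.34), which did not pass adjustment (limma, adjusted p = 0.129, 0.105 and 0.143). Without replicate 1 of 4–18, which read 11.57 where the other 3 arrays read 13.25 to 13.34, the difference in 4–18 was -0.33 (adjusted p = 0.349), and those in 3–44 and shRNA3T stayed at -0.99 and -0.85 but passed adjustment (adjusted p = 0.00850 and 0.0147). Without the replicate 1 arrays of all groups it was -0.41, -0.81 and -0.79, and all 3 passed adjustment (limma, adjusted p = 0.00659, 0.000302 and 0.000208). All 7 hepatocyte markers examined (*Alb*, *Ttr*, *Tf*, *Ahsg*, *Serpina1*, *Fgb*, *Tat*) were well above background on every array. Fewer cells expressing a gene and less RNA per cell cannot be told apart in these bulk samples.

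*Mttp* and *Lipc* were higher than in CN-10 on every array of the 3 silenced groups. *Mttp* read 7.21, 6.85, 7.08 and 7.21 on the CN-10 arrays, on a log2 scale that is used for all levels here. It read 9.56, 10.17, 9.63 and 9.78 in 4–18, 10.49, 10.15, 10.09 and 9.80 in 3–44, and 9.87, 10.22, 9.89 and 10.04 in shRNA3T. The silenced arrays formed 1 range that lay well clear of CN-10. The mean of CN-10 was 7.09 ± 0.17 (SD, n = 4), and the log2 differences from it were 2.70 in 4–18, 3.04 in 3–44 and 2.92 in shRNA3T (SE 0.15), that is 6.49-, 8.25- and 7.56-fold. With other processing these differences ranged from 2.20 to 3.56, from 2.97 to 3.76 and from 2.92 to 3.96. In order of level, CN-10 was followed by 4–18 (9.78 ± 0.27), shRNA3T (10.01 ± 0.16) and 3–44 (10.13 ± 0.28). The arrays of these silenced neighbours overlapped, with a log2 difference of -0.22 for 4–18 against shRNA3T (95% interval -0.55 to 0.11) and 0.13 for 3–44 against shRNA3T (-0.20 to 0.45). The order of 3–44 and shRNA3T turned with the processed signal of the software (-0.20 or -0.21, by scaling), with the authors' series values (-0.012) and without the replicate 1 arrays of all groups (-0.037). Between the extremes, 4–18 and 3–44, it was -0.35 (-0.67 to -0.02), and their arrays overlapped too.

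*Lipc* read 9.71, 9.46, 9.45 and 9.44 on the CN-10 arrays. It read 11.79, 11.46, 11.43 and 11.38 in 4–18, 11.19, 10.84, 10.93 and 11.08 in 3–44, and 11.30, 11.40, 11.34 and 11.62 in shRNA3T. No silenced array came near CN-10, and the arrays of 3–44 lay below all those of the other silenced groups. The log2 difference from CN-10 (9.52 ± 0.13, SD, n = 4) was 2.00 in 4–18, 1.49 in 3–44 and 1.90 in shRNA3T (SE 0.11), that is 3.99-, 2.82- and 3.73-fold. With other processing these ranged from 1.33 to 2.35, from 1.41 to 1.80 and from 1.90 to 2.24. In order of level, CN-10 was followed by 3–44 (11.01 ± 0.15), shRNA3T (11.41 ± 0.14) and 4–18 (11.51 ± 0.19). The difference of 3–44 from shRNA3T was -0.40 (95% interval -0.64 to -0.17) and that of 4–18 from shRNA3T 0.10 (-0.13 to 0.33). Clone 4–18 exceeded 3–44 by 0.50 (0.27 to 0.74), but with the series values deposited by the authors, which are not scaled between arrays, this difference was -0.09 and that of 4–18 from shRNA3T -0.62. Without the replicate 1 arrays of all groups the latter was -0.030, so the order of these groups is not settled.

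*Apob*, the structural protein of the particle that the product of *Mttp* fills, did not follow *Mttp*. The software flagged its spot as an outlier on 2 CN-10 arrays and 1 shRNA3T array, and these were dropped from the fit. The remaining CN-10 arrays read 15.02 and 15.07. In 4–18 it read 14.75, 13.61, 14.28 and 13.18, in 3–44 14.96, 15.64, 15.83 and 15.48, and in shRNA3T 15.36, 15.71 and 15.35. All 4–18 arrays lay below all others. Its log2 difference from CN-10 was -1.09 in 4–18 (SE 0.36), 0.43 in 3–44 (SE 0.36) and 0.42 in shRNA3T (SE 0.38). The value in 4–18 was only just past the limits for a call. It was not called in 12 of the 16 fits that left out 1 array: any CN-10 array, any of 3–44 or shRNA3T except replicate 1, or replicate 2 or 4 of 4–18, with differences from -1.36 to -0.83 over all 16. It was not called in the fit on these 2 groups alone (-1.09) or with the replicate number as a block (-1.005) either, and the authors' series values gave -1.79. Against the silenced groups, which do not share the missing CN-10 arrays, 4–18 was lower by 1.52 than 3–44 (log2 difference -1.52, SE 0.29) and by 1.51 than shRNA3T (-1.51, SE 0.32).

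*Apoa1*, *Apoc3*, *Apoa4* and *Apoa5* are neighbours in this order on chromosome 8, with no other gene between them in the RefSeq gene table. The first pair lay lower than CN-10 in one stable clone and higher in the other. *Apoa1* read 10.73, 9.93, 10.42 and 9.55 in CN-10, 7.98, 7.49, 8.67 and 8.03 in 4–18, 12.57, 12.16, 12.17 and 12.47 in 3–44, and 10.02, 10.23, 10.20 and 10.32 in shRNA3T. Clone 4–18 lay below and 3–44 above every CN-10 array, whereas shRNA3T fell inside the CN-10 range. Its log2 difference from CN-10 was -2.12 in 4–18, where 3 of 4 arrays were well above background, 2.18 in 3–44 and 0.04 in shRNA3T (SE 0.25).

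*Apoc3*, whose product inhibits the clearance of triglyceride-rich particles, read 11.78, 11.64, 11.69 and 10.71 in CN-10, 9.65, 10.29, 9.33 and 10.50 in 4–18, 13.53, 12.99, 13.11 and 13.09 in 3–44, and 11.99, 12.16, 12.00 and 11.96 in shRNA3T. As for *Apoa1*, 4–18 lay below and 3–44 above every CN-10 array, and here shRNA3T also lay above CN-10 without overlap. The log2 difference from CN-10 was -1.51 in 4–18, 1.73 in 3–44 and 0.57 in shRNA3T (SE 0.26), and with the authors' series values it was -2.22 in 4–18. Leaving out single arrays gave 0.32 to 0.68 in shRNA3T. The directions of *Apoa1* and *Apoc3* in the stable clones were kept under every alternative processing.

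*Apoa4*, an apolipoprotein of high density lipoprotein and chylomicrons, lay between 7.64 and 7.96 in CN-10, 7.79 and 8.94 in 4–18, 8.97 and 9.16 in 3–44, and 8.62 and 8.83 in shRNA3T. Its log2 difference from CN-10 was 0.61, 1.25 and 0.90 in these groups (SE 0.17), and only 4–18 overlapped CN-10. The call in 3–44 was lost with the authors' series values (1.15). *Apoa5*, whose product promotes the hydrolysis of triglycerides by lipoprotein lipase, lay between 12.35 and 13.47 in CN-10 and overlapped it in every silenced group. Its log2 difference was -0.53 in 4–18 and -0.68 in shRNA3T (SE 0.27), and in 3–44 it was smaller than its SE. With the authors' series values it was past 2-fold in 4–18 (-1.24).

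**Figure D1:**
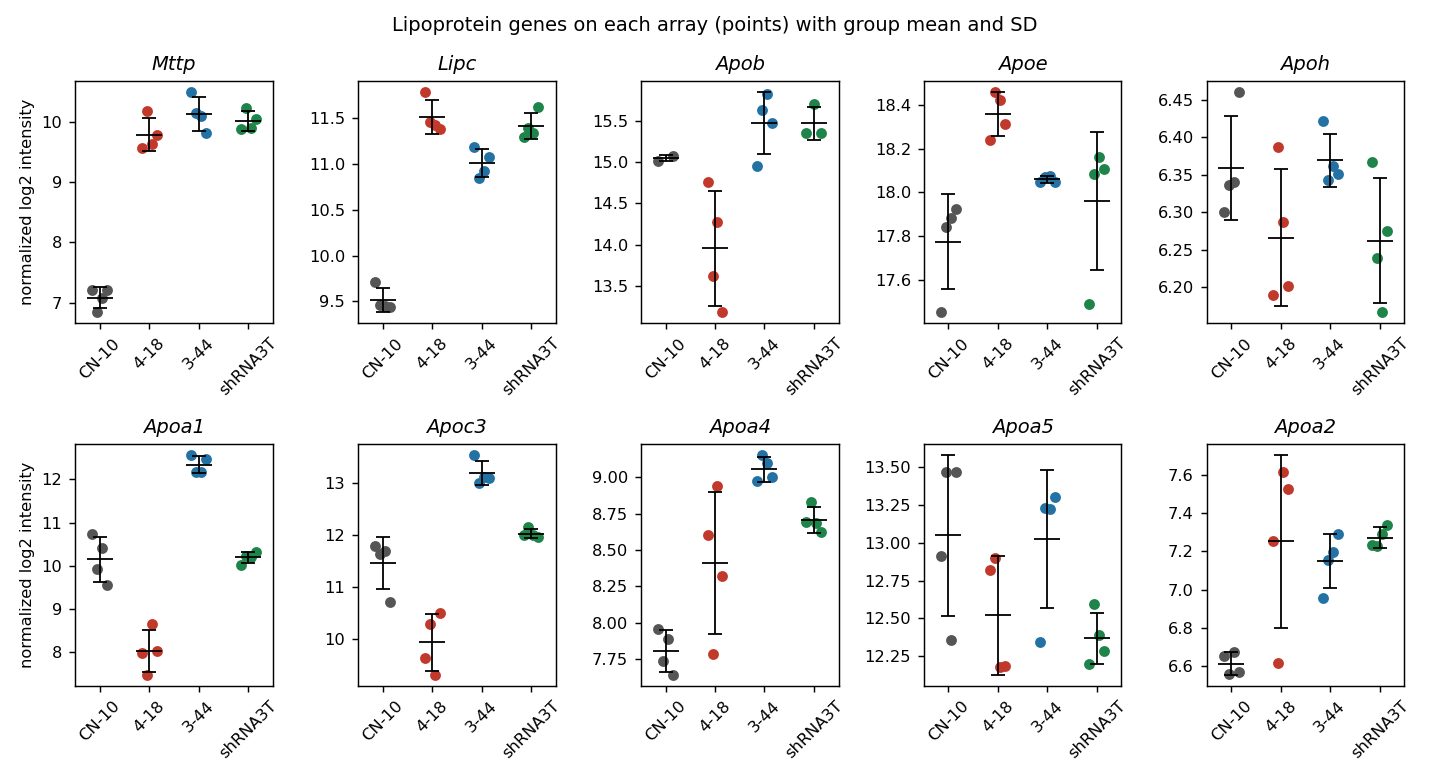
Normalized log2 intensity (vertical axis, on a scale of its own in each panel) of the 10 genes on each array (points) of the 4 groups, with group mean and SD (bars; *Apob* has 2 CN-10 and 3 shRNA3T arrays). *Mttp* and *Lipc* lie above CN-10 in all silenced groups, and *Apoa1* and *Apoc3* lie below it in 4–18 and above it in 3–44.

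Of the remaining genes, *Apoa2*, the second protein of high density lipoprotein, lay between 6.56 and 6.68 in CN-10, 6.62 and 7.62 in 4–18, 6.96 and 7.29 in 3–44, and 7.23 and 7.34 in shRNA3T. It was well above background on 3 of 4 arrays of 4–18 and on all others, and its log2 difference from CN-10 was 0.64, 0.54 and 0.66 (SE 0.16). With the processed signal of the software it passed 2-fold and was called in all 3 groups, at 1.45, 1.53 and 1.59 after quantile normalization and 1.28, 1.28 and 1.31 after scaling to the 75th percentile. *Apoe*, the ligand of receptors for remnants, lay between 17.45 and 17.93 in CN-10 and was 0.58 higher in 4–18, 0.29 in 3–44 and 0.19 in shRNA3T (log2, SE 0.14), with no saturated spot. *Apoh*, beta-2-glycoprotein I, was well above background on 0 of 16 arrays, and no difference is given for it.

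In at least 1 group, 9 of the 10 genes passed the background limit on every array. In 4–18, 2 of the 10 were called higher than CN-10 (*Mttp*, *Lipc*) and 3 lower (*Apob*, whose call was lost under the alternatives given above, *Apoa1* and *Apoc3*), where 2.62% of all gene names were called higher and 3.54% lower. In 3–44, 5 were called higher (*Mttp*, *Lipc*, *Apoa1*, *Apoc3*, *Apoa4*) against 0.685% of all gene names, and none lower. In shRNA3T, *Mttp* and *Lipc* were called higher, against 1.2% of all gene names, and none lower. These 2 were called higher in all 3 groups, against 0.198% of all gene names. The arrays of 3 genes lay wholly above and of 3 wholly below those of CN-10 in 4–18 (12% and 11.5% of all gene names), of 7 above in 3–44 (7.24%) and of 6 above in shRNA3T (11%). The shares are printed beside the counts only, since the genes were chosen with these comparisons known.

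**Figure D2:**
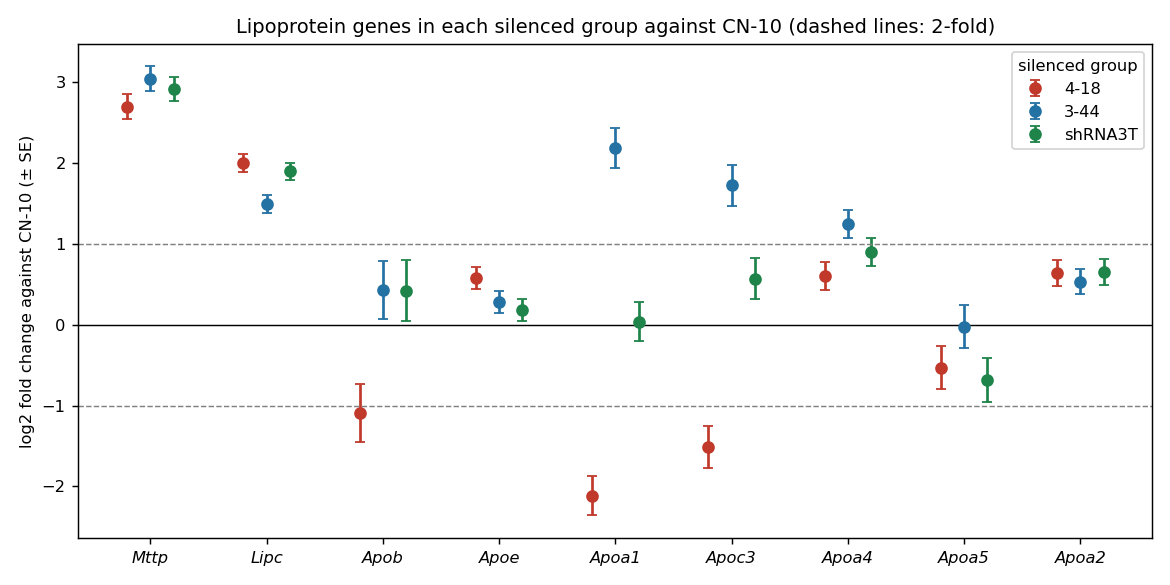
Log2 fold change against CN-10 (vertical axis) of 9 genes in each silenced group, with SE bars and dashed lines at 2-fold. *Mttp* and *Lipc* are above the upper line in all groups (1.49 to 3.04), and *Apob*, *Apoa1* and *Apoc3* are below the lower line in 4–18.

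The silenced groups were also compared with each other. The genes were proposed with all 4 groups known, so these values too are a description. In 4–18, *Apoa1* was 19.7-fold below 3–44 (log2 difference -4.30, SE 0.25), with no overlap between arrays. One of the 4 arrays of 4–18, replicate 2, was not well above background for *Apoa1*, and without it the difference was -4.12. *Apoc3* was 9.43-fold below 3–44 (-3.24, SE 0.26). With *Apob* these were the 3 genes of 10 called lower in 4–18 than in 3–44, against 2.88% of all gene names. *Apoa4* was also lower in 4–18 but less than 2-fold (-0.64, SE 0.17), and it passed 2-fold with the processed signal of the software (-1.07).

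The same 3 genes, *Apoa1*, *Apoc3* and *Apob*, were called lower in 4–18 than in shRNA3T, against 2.7% of all gene names. *Apoa1* differed by -2.15 (SE 0.25) and *Apoc3* by -2.08 (SE 0.26). Clone 3–44 and the pool carry the same shRNA3 plasmid, yet 2 of the 10 genes were called higher in the clone, against 0.944% of all gene names. *Apoa1* differed by 2.15 (SE 0.25). *Apoc3* differed by 1.16 (SE 0.26), and this call was lost with the authors' series values (1.06) and without the replicate 1 arrays of all groups (1.03). For *Apob* the interval of 3–44 against shRNA3T was -0.69 to 0.70, and for *Apoa2* it was -0.46 to 0.22.

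**Figure D3:**
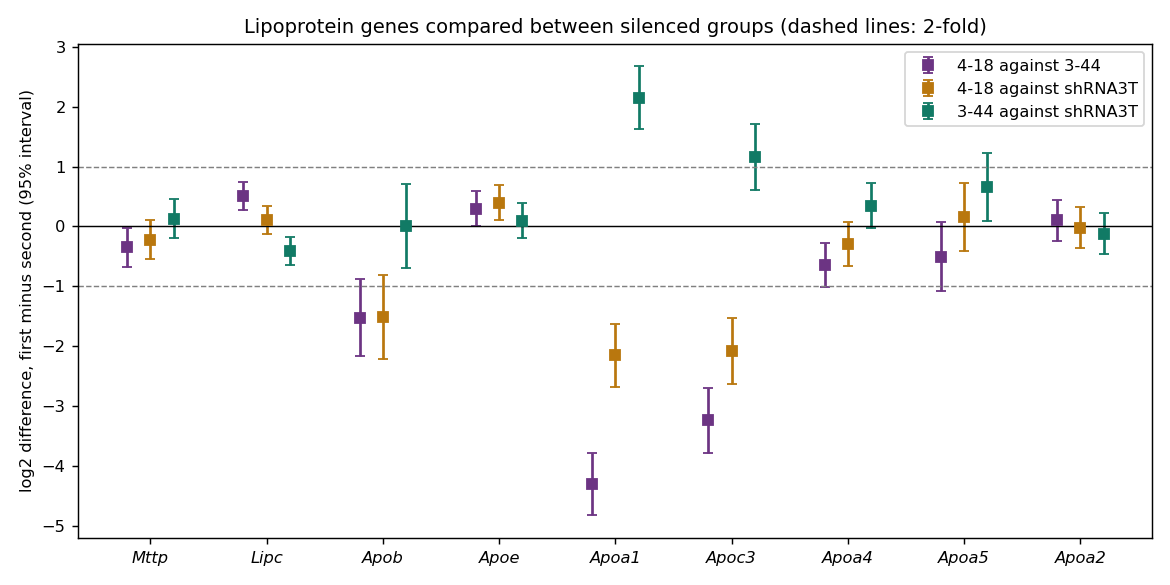
Log2 difference between silenced groups (vertical axis, first group minus second) of 9 genes, with 95% intervals and dashed lines at 2-fold. *Apoa1* has the largest difference, -4.30 between 4–18 and 3–44, while the intervals of *Mttp*, *Lipc*, *Apoe* and *Apoa2* lie inside 2-fold in every comparison.

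Because intestinal cells express many of these genes, markers of enterocytes were read as well. In CN-10, 3–44 and shRNA3T 5 of 6 passed the background limit on every array, and in 4–18 3 of 6 did, and *Si*, sucrase-isomaltase, was above it on 1 of 16 arrays. Their summed level ranged from 10694 to 11184 intensity units in CN-10, 8802 to 11885 in 4–18, 10063 to 14298 in 3–44 and 11273 to 13518 in shRNA3T. Most of this sum was *Vil1* and *Cdx2*, with log2 means of 12.96 and 10.95 in CN-10, where the others lay between 6.22 and 8.84. *Fabp2*, a fatty acid binding protein, was called lower in 4–18 (log2 difference -1.66), where the other 5 lay between -0.70 (*Cdx2*) and 0.14. *Lgals4*, a galectin, was called higher in 3–44 (1.88) and shRNA3T (1.04). *Fabp2* had -0.78 in shRNA3T, with no overlap of arrays and less than 2-fold, and the remaining markers had differences from -0.19 to 0.31 in 3–44 and from -0.23 to 0.19 in shRNA3T.

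The summed level of the 7 hepatocyte markers, over the 13 arrays with a value for each, was 425753 to 581082 units in CN-10, 336596 to 513884 in 4–18, 624238 to 801757 in 3–44 (3 arrays each) and 501836 to 655821 in shRNA3T (4 arrays). *Ttr* was called higher in all 3 groups (log2 difference 2.93 in 4–18, 2.84 in 3–44 and 2.39 in shRNA3T). In 4–18, *Tf* and *Ahsg* were called lower (-1.50 and -1.29), *Fgb* and *Tat* had -0.68 and -0.59 with no overlap of arrays, and *Alb* and *Serpina1* had 0.10 and 0.33. In 3–44 the 6 markers other than *Ttr* were not called and lay between -0.25 (*Ahsg*) and 1.02 (*Tf*). In shRNA3T, *Serpina1* and *Fgb* were called higher (1.496 and 1.16), and the other 4 lay between -0.48 (*Ahsg*) and 0.33 (*Tat*). Of 4 markers of fetal liver and hepatoma (*Afp*, *Gpc3*, *Igf2*, *H19*), none was called, and their summed level was 14351 to 17182 units in CN-10, 13060 to 15551 in 4–18, 12896 to 17773 in 3–44 and, without overlap, 7931 to 10084 in shRNA3T. Nearly all of this sum was *Afp*, alpha-fetoprotein, which had -0.87 in shRNA3T with no overlap of arrays, while the differences of the other 3 there were -0.16 to 0.12. The part of these shifts in the apolipoprotein values was not tested.

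Other genes of lipoprotein metabolism were taken as 6 lists of 77 genes, of which 72 were on the array and 61 measurable in at least 1 group. The limits for a call were those given for the members. Against CN-10, 6 of the 72 rose and 2 fell past them in 4–18 (all gene names in either direction, 6.15%), 5 rose and none fell in 3–44 (1.47%), and 4 rose and none fell in shRNA3T (2.39%). The median log2 difference of the 72 was 0.016, 0.050 and 0.14 in these groups, and that of all probes 0.0057, -0.0031 and -0.0072.

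Of 12 partners in assembly and secretion, 1 was called in any group, that is, passed the 2-fold limit as well as the test. *Cideb*, a lipid droplet protein that takes part in the lipidation of very low density lipoprotein, rose in 3–44 (log2 difference 1.74, SE 0.15, adjusted p = 4.14e-06) and shRNA3T (1.11, adjusted p = 0.000148). In 4–18 its difference was -0.23 (adjusted p = 0.325). The difference between 4–18 and 3–44 was -1.97.

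Of 9 other exchangeable apolipoproteins, *Saa4*, a constitutive serum amyloid A of high density lipoprotein, fell in 4–18 (-1.92, SE 0.17, adjusted p = 1.06e-06) and rose in 3–44 (1.11, adjusted p = 0.000705), with 0.98 in shRNA3T. This *Saa4* probe was well above background on 3 of 4 arrays of 4–18 and on all others. A second, dimmer *Saa4* probe had -0.23, 0.64 and 0.45 and was not called, and the call in 3–44 was lost without 3–44 replicate 4 (0.91). That call was also lost under 2 of the 11 alternatives described below, with differences down to 0.97. Of 11 other lipases and their regulators, *Angptl4*, an inhibitor of lipoprotein lipase, rose in all 3 groups, by 2.68 in 4–18, 1.79 in 3–44 and 3.91 in shRNA3T (SE 0.21, adjusted p = 2.80e-07, 7.15e-05 and 1.89e-08).

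Of 11 genes of high density lipoprotein remodelling and sterol transport, *Lcat*, which esterifies cholesterol on the particle, rose in shRNA3T (1.09, SE 0.32, adjusted p = 0.0374). This call was lost without CN-10 replicate 1, 2 or 3 or shRNA3T replicate 2, 3 or 4 (0.90 to 1.18), and under 1 of the 11 alternatives. Of 10 receptors, *Cd36*, a fatty acid and lipoprotein receptor, fell in 4–18 (-1.30, SE 0.21, adjusted p = 0.000347), where a second probe had -0.60 and was not called. The first *Cd36* probe was well above background on 3 of 4 arrays of 4–18, and its call was lost under 1 of the 11 alternatives.

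Of 19 transcription factors of apolipoprotein genes, 5 rose in 4–18, 2 in 3–44 and 1 in shRNA3T, where 2.62%, 0.685% and 1.2% of all gene names were called higher. In the fit limited to probes well above background these shares were 4.16%, 1.19% and 2%. *Creb3l3*, a membrane-bound factor of triglyceride metabolism, rose in 4–18 (1.36, SE 0.13, adjusted p = 3.11e-06) and shRNA3T (1.68, adjusted p = 1.30e-06) and had 0.84 in 3–44. Its call in 4–18 was lost under 1 of the 11 alternatives (0.65). *Nr5a2*, an activator of apolipoprotein and bile acid genes, rose in 4–18 (1.39, SE 0.23, adjusted p = 0.000367) and 3–44 (1.07, adjusted p = 0.00861). The call in 3–44 was lost without CN-10 replicate 2 or 3 or 3–44 replicate 1 (0.96 to 0.97), and a second probe had 0.60 and 0.17 and was not called. The calls in 4–18 and in 3–44 were each lost under 3 of the 11 alternatives, with differences down to 0.74 and 0.64. *Ppargc1a*, a coactivator of fasting metabolism, was well above background only in 4–18 and was at least 4.72-fold higher there than in CN-10. Of the 5 factors called in 4–18, it alone kept its call there under all 11 alternatives.

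The other factors were chosen after their values were seen. *Ppara*, a fatty acid receptor, rose in 4–18 (1.15, adjusted p = 1.23e-05), as did the corepressor *Nr0b2* (1.25, adjusted p = 1.13e-05). *Ppara* and *Nr0b2* each lost the call in 4–18 under 1 of the 11 alternatives (0.68 and 0.52). In 3–44 and shRNA3T they were less than 2-fold above CN-10, with no overlap of arrays, at 0.60 and 0.77 for *Ppara* and 0.74 and 0.94 for *Nr0b2*. *Mlxipl*, a glucose-responsive factor, rose in 3–44 (1.03, adjusted p = 0.00177), a call that was lost without CN-10 replicate 4 or 3–44 replicate 1 (0.92 and 0.86). This call was also lost under 5 of the 11 alternatives, with differences down to 0.84. *Hnf4a*, whose motif was searched in the promoters, was not called, with -0.37 in 4–18 and 0.45 in 3–44.

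**Figure D4:**
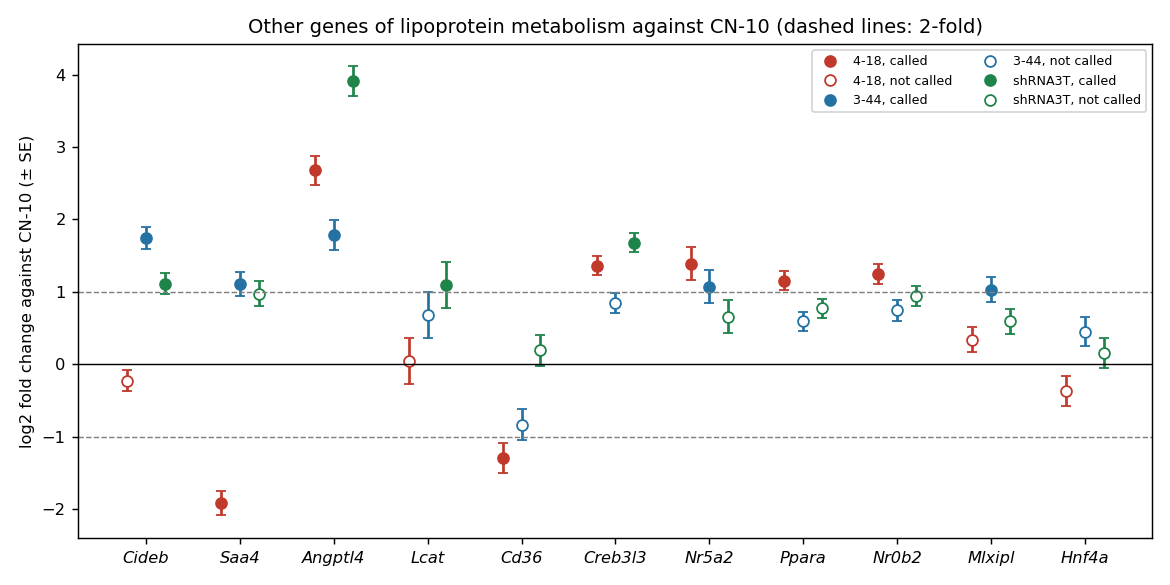
Log2 fold change against CN-10 (vertical axis) of 11 other genes of lipoprotein metabolism in each silenced group, with SE bars and dashed lines at 2-fold. Filled points were called and open points were not, and *Angptl4* is filled in all 3 groups (1.79 to 3.91).

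Among 15499 genes measurable in at least 1 group, the 5 with profiles most like that of *Mttp* over the 16 arrays (root mean square difference in log2, each profile centred on CN-10) included *G6pc* (0.66), *Serpinf2* (0.79), *Rtn2* (0.82) and *Agmat* (0.82). The remaining gene, *Insc*, had the smallest value (0.35), but its probe was well above background on 1 of 4 CN-10 arrays, so the level its profile was centred on was not measured and its rank is uncertain. For *Lipc* they were *Hdac5* (0.27), *Agmat* (0.29), *Arl8a* (0.29), *Gpr146* (0.30) and *Pla2g15* (0.32). The root mean square difference between *Mttp* and *Lipc* themselves was 1.02.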

How the data were processed

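Per the labels, total RNA of 4 biological replicates per group was labelled with Cy3 and hybridized to rat 4x44K arrays. The authors deposited linear intensity values for spots and their surrounding background, quantified with Feature Extraction 10.7.3.1 and not normalized, and the processed signal intensity of that software. A table of log2 values that the authors deposited had lost its decimal points. Once restored, these equalled the normexp-corrected median signal without scaling between arrays (largest difference 4e-11).

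Here, background was corrected with normexp (offset 50), control spots were left out, arrays were quantile normalized, spots flagged as outliers were set aside and spots of a probe averaged (R 4.3.3, limma 3.58.1). The 30367 probes of all 16 arrays entered one limma model (lmFit, eBayes) with a mean for each group. A gene was called at 2-fold or more with a Benjamini-Hochberg adjusted p under 0.05, and its probe with the highest mean represented it. A probe was measurable in a group where all arrays were well above background. A lower bound was computed against the dim group's signal or the lowest signal well above background, whichever was higher. Differences smaller than their SE were not followed through the alternatives, except for *Mttp* and *Lipc*.

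The genes and the 6 lists were chosen with earlier results of these data known. Comparisons of the genes between silenced groups, planned as tests, are given as a description for that reason, and p-values of list genes, adjusted over all probes, are not independent support. From the lists, genes called in at least 2 comparisons with CN-10 in 1 direction, and the called gene with the largest change per list and comparison, were named. For *Mttp* and *Lipc* the 5 most similar profiles were named. Alternatives were the software's processed signal (quantile or 75th percentile scaling), cyclic loess, the authors' series values, a filter on dim probes, outlier spots kept, array weights, fits on 2 groups, the replicate number as a block, a 1.5-fold limit and leaving out single arrays. The steps were tested on simulated data. The number of arrays limits the precision.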

Additional observations from a re-analysis of the deposited data

Results flagged for a closer look

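Among 38 sets of 4 arrays of 1 gene and group, 4 held an array that stood apart by Dixon's test at the 95% level, where chance alone gives about 1 in 20. These were *Lipc* in CN-10 replicate 1, the highest of its group at 9.71, *Apoa5* in 3–44 replicate 1, the lowest at 12.34, *Apoc3* in CN-10 replicate 4, the lowest at 10.71, and *Apoe* in shRNA3T replicate 1, the lowest at 17.49.

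For 5 genes a limma contrast between silenced groups had an adjusted p under 0.05. The genes were chosen with these groups known, so the values are a description. For *Lipc* the log2 difference was 0.50 for 4–18 against 3–44 and -0.40 for 3–44 against shRNA3T, and for *Apoa4* it was -0.64 for 4–18 against 3–44, all less than 2-fold. For *Apob* it was -1.52 for 4–18 against 3–44 and -1.51 for 4–18 against shRNA3T. For *Apoa1* it was -4.30 for 4–18 against 3–44, -2.15 for 4–18 against shRNA3T and 2.15 for 3–44 against shRNA3T. For *Apoc3* it was -3.24, -2.08 and 1.16 in the same order.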

How the results depend on the processing

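Most values kept their direction and their side of the limits under the 11 alternatives. Of the genes studied, 1 and not 2 was called in 3–44 against shRNA3T with the authors' series values (1.24% of all gene names), and 1 without the replicate 1 arrays of all groups (1.89%), an alternative chosen after seeing that *Pdrg1* was lowest on them. With the 1.5-fold limit, 4 were called in shRNA3T against CN-10 (7.53% of all gene names). Of the 72 list genes, 8 and not 5 were called in 3–44 with the processed signal under either scaling (2.45% and 2.92% of all gene names), 2 with the series values (0.723%), 3 with array weights (1.59%) and 12 with the 1.5-fold limit (4.88%), and 3 to 5 when single arrays were left out. In shRNA3T, 8 (quantile) or 7 (75th percentile) and not 4 were called with the processed signal (4.27% and 4.73%), and 13 with the 1.5-fold limit. In 4–18, 20 were called with the 1.5-fold limit (15.6%). With the series values, 11.5% of all gene names were called in 4–18 against CN-10 and 0.83% higher, where the reported fit called 6.15% and 2.62% higher.

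The direction turned for small differences. For *Mttp* in 3–44 against shRNA3T it was -0.20 with the processed signal and quantile normalization, -0.21 with the 75th percentile, -0.012 with the series values and -0.037 without the replicate 1 arrays. For *Lipc* in 4–18 it was -0.089 against 3–44 and -0.62 against shRNA3T with the series values, and -0.030 against shRNA3T without the replicate 1 arrays. With the series values it was -0.064 for *Apoe* in 4–18 against 3–44 and -0.22 for *Mlxipl* in 4–18 against CN-10. The cause was not tested. Scaling to the 75th percentile moved the median of all probes to 0.20 in 4–18 and -0.23 in shRNA3T against CN-10, and the series values moved it to 0.15 in 4–18.

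The replicate numbers did not meet the limit set for pairing, an r of deviations over 0.1 in every pair. It was -0.12 to 0.48, over 0.1 in 14 of 24 pairs, and highest with the array's own number in 14 of 24. For replicate 1 it was 0.19 to 0.48 and highest with its own number in all 6 comparisons, a hint from the data and not from the design. With the replicate number as a block, 4 and not 5 of the genes studied were called in 4–18 against CN-10 (6.21% of all gene names), as in the fit on these 2 groups alone (5.78%), in both without *Apob*. In the other comparisons the counts with the block were those without it. A slide or scan block was not possible because no slide is named and each scan time held 1 group. Dim probes, above all in 4–18, limit small differences.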
